A study of Mus musculus with 2 samples.

Results

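Dermomyotome and early myogenic cells are the part of the young somites from which skeletal muscle and dermis form. They were taken here as the cells with at least 2 UMIs (unique molecular identifiers, each standing for 1 captured transcript) summed over Myf5, Myog, Lbx1, Dmrt2 and Meox2. At least 1 of these UMIs had to come from Myf5, Myog, Lbx1 or Dmrt2, and cells with a UMI of Epcam, Sox10, Sox1, Sox2 or Olig3, which mark epithelium, neural crest or neural tube, were left out. The rule held for 192 of 11958 cells in the WT library and 82 of 9765 cells in the KO library. The cells were thus chosen by the measured UMIs of these genes, so the values of the rule's genes, and of genes in these cells against other cells, are given as a description only.

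In the somite, a ball of mesoderm beside the neural tube, the lower part loosens into the sclerotome and the upper part stays epithelial as the dermomyotome, which is marked by Pax3, Pax7 and Meox1. Cells at its edges switch on Myf5, the earliest myogenic regulatory factor in the mouse, and pass under it to form the first muscle layer, the myotome. There they leave the cell cycle, express Myog, which encodes myogenin, and begin to make sarcomere proteins. Muscles of the head and pharyngeal arches use the same regulatory factors but come from unsegmented mesoderm marked by Tbx1, Tcf21, Isl1 and Lhx2.

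The tissue was the region dissected from the middle of the ear placode to the back of somite 4 of C57BL/6 embryos at E9.5, profiled by 3′ droplet sequencing. Embryos of both libraries carried Wnt1-Cre2, in which Wnt1 regulatory sequence drives the Cre recombinase in the dorsal neural tube and the neural crest that leaves it, and the ZsGreen1 reporter. Embryos of the KO library were homozygous for a floxed Prdm6 allele (Prdm6f/f) and those of the WT library were Prdm6+/+. Somitic and head mesoderm are not known to come from Wnt1-expressing cells, so the cells described are mesodermal neighbours of the targeted neural crest.

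Prdm6, the targeted gene, had 104 UMIs in 101 of the WT cells and 59 UMIs in 57 of the KO cells, and transcripts of the floxed allele before and after Cre are not separated by their 3′ ends. Within the dermomyotome and early myogenic cells it had 1 UMI in WT and 0 in KO, where a count of 0 allows a share of cells with a UMI of up to 3.66%. Wnt1 had 0 UMIs in these cells in both libraries. Xist, transcribed from the inactive X chromosome of females, was at 160 CPM (UMIs scaled to a summed total of 1000000) in the other WT cells and 333 in the other KO cells, and Gm42418, which overlaps ribosomal RNA sequence, at 1096 and 2516. The part of these library-wide differences in the values below was not tested. The libraries shared 26 cell barcodes, none of them among the 274 cells described. With 1 library for each genotype no test was possible. Every interval is an exact 95% interval for counting error alone, and differences between embryos, dissections and libraries cannot be told apart from genotype.

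Myf5 carried the selection. It had a UMI in 175 of the 192 WT cells (91.1%) and 76 of the 82 KO cells (92.7%), at 2011 and 1278 CPM. In globin-rich cells, which should lack it, 1.45% of WT and 0.410% of KO cells had a Myf5 UMI at median depths of 1879 and 2375.5 UMIs a cell, against 2067 and 2480.5 in the selected cells. A single cell held up to 44 Myf5 UMIs in WT and up to 14 in KO, with medians of 3 and 2. Myf5 was the only marker gene detected in 95 WT cells (49.5%) and 40 KO cells (48.8%).

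Myog, the factor of differentiating muscle cells, had a UMI in 40 WT cells and 17 KO cells. Dmrt2, a dermomyotome factor, was detected in 39 and 13 cells. Meox2, a homeobox gene of somite-derived muscle and limb, was detected in 31 and 15 cells. Lbx1, which marks precursors migrating to limb and tongue, was detected in 4 WT cells and 2 KO cells, from 8 and 2 UMIs, which does not limit how many cells expressed it. The exclusion of Sox1 or Sox2 had removed 1 of 6 WT and 2 of 4 KO candidate cells with Lbx1.

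The cut lay in a continuous range of counts. Exactly 2 marker UMIs were found in 69 WT and 38 KO cells. A single marker UMI, with the other conditions met, was found in 213 WT and 150 KO cells, which stayed outside. Pax3, a gene the rule did not use, was at 433 CPM (interval 329 to 560) in the WT cells with 2 marker UMIs and at 165 (127 to 211) in those with 1. In KO it was at 236 (146 to 361) with 2 and 143 (104 to 192) with 1. Cells just outside thus carried Pax3 as well, at a lower level in WT and with overlapping intervals in KO.

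These cells made up 1.61% of the WT library (interval 1.39 to 1.85%) and 0.840% of the KO library (0.668 to 1.04%), a log2 ratio of KO over WT of -0.94 (-1.33 to -0.55). The ratio was -1.19 (-1.72 to -0.68) with at least 3 marker UMIs, -1.28 (-1.91 to -0.68) with at least 4, -0.80 (-1.58 to -0.06) with at least 6 and -1.77 (-3.34 to -0.45) with at least 10, where 25 WT and 6 KO cells remained, so it did not change steadily with the cut. KO cells were sequenced more deeply. With cells thinned to 1000 UMIs before the rule was applied, the shares were 1.20% and 0.529%. Cells below 1000 UMIs, 1361 in WT and 125 in KO, were left out of these shares. The share was lower in KO under each of these rules.

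Neighbouring mesoderm differed between the libraries as well. The comparison classes were taken outside the selected cells and without a UMI of Epcam, Sox10, Sox1, Sox2 or Olig3. A cell that met the selection was thus counted there only, and cells that met both comparison rules were left out. Sclerotome-marker cells, with at least 2 UMIs over Pax1, Pax9 and Uncx, numbered 57 in WT and 28 in KO, a log2 ratio of shares of -0.73 (-1.44 to -0.06). Pharyngeal mesoderm-marker cells, with at least 2 UMIs over Tcf21, Tbx1 and Msc, numbered 33 in WT and 55 in KO. Their log2 ratio of shares was 1.03 (0.38 to 1.70). They had medians of 2011 and 2454 UMIs a cell, and neither neighbouring class was checked on thinned cells. The number of dermomyotome and early myogenic cells per sclerotome-marker cell had a log2 ratio of -0.20 with an interval of -0.99 to 0.61. Both somitic classes were scarcer in KO and the arch mesoderm class more frequent. The Hox genes, which mark position along the body, had a summed log2 ratio of -0.33 in all other cells, and a dissection of a different span cannot be told apart from genotype.

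**Figure D1:**
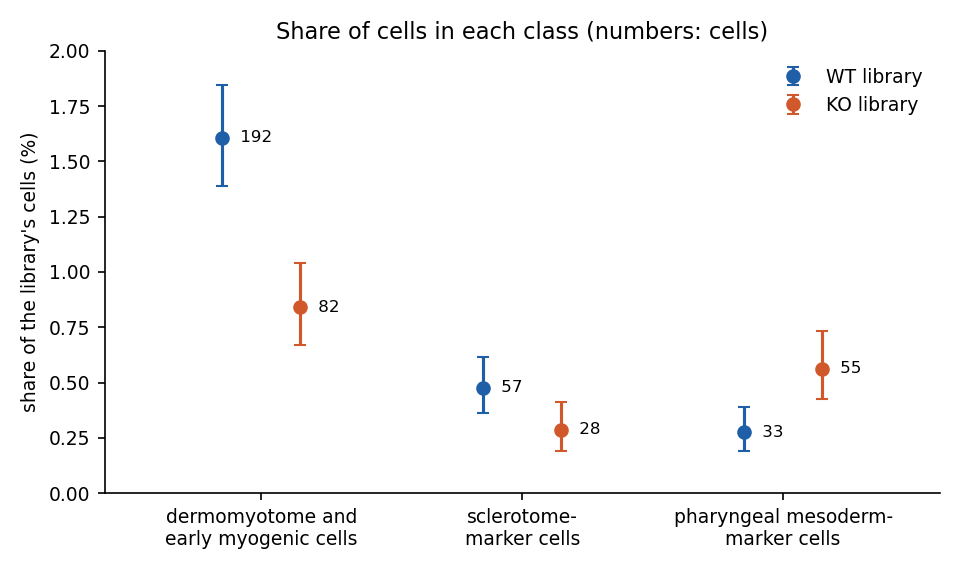
Share of each library's cells (percent, vertical axis) in 3 marker-defined mesodermal classes, with exact 95% binomial intervals for counting error and the number of cells beside each point. Dermomyotome and early myogenic cells were 1.61% of WT and 0.840% of KO cells, sclerotome-marker cells were also fewer in KO, and pharyngeal mesoderm-marker cells were more frequent.

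Among 5525 genes with at least 20 UMIs in the selected cells and outside the rule, 109 (1.97%) were more than 2-fold above all other cells in both libraries and 16 (0.29%) more than 2-fold below. Myh3, the embryonic skeletal myosin heavy chain, was at 154 CPM in the WT and 121 in the KO cells, against 2.36 and 2.88 in the other cells. Cdkn1a, the cell cycle inhibitor p21, was at 231 and 165 against 11.2 and 13.6. Cdkn1c, the inhibitor p57, was the most abundant of them at 2869 and 2264 against 582 and 553. Both inhibitors are linked to the cell cycle exit of muscle cells.

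Tcf15, or paraxis, a somite factor that keeps the epithelium in shape, was at 265 CPM in the WT and 214 in the KO cells, against 26.5 and 25.8 in the other cells. Pax3 was at 340 and 253, against 55.5 and 54.0. Meox1, a homeobox gene of the whole somite, was at 284 and 277, against 63.6 and 66.5. Ncam1, a cell adhesion molecule of neural and somitic cells, was at 858 and 719, against 92.0 and 87.3. These genes took no part in the selection. Pax3 goes with the label, while Meox1 and Ncam1 are not particular to the dermomyotome.

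**Figure D2:**
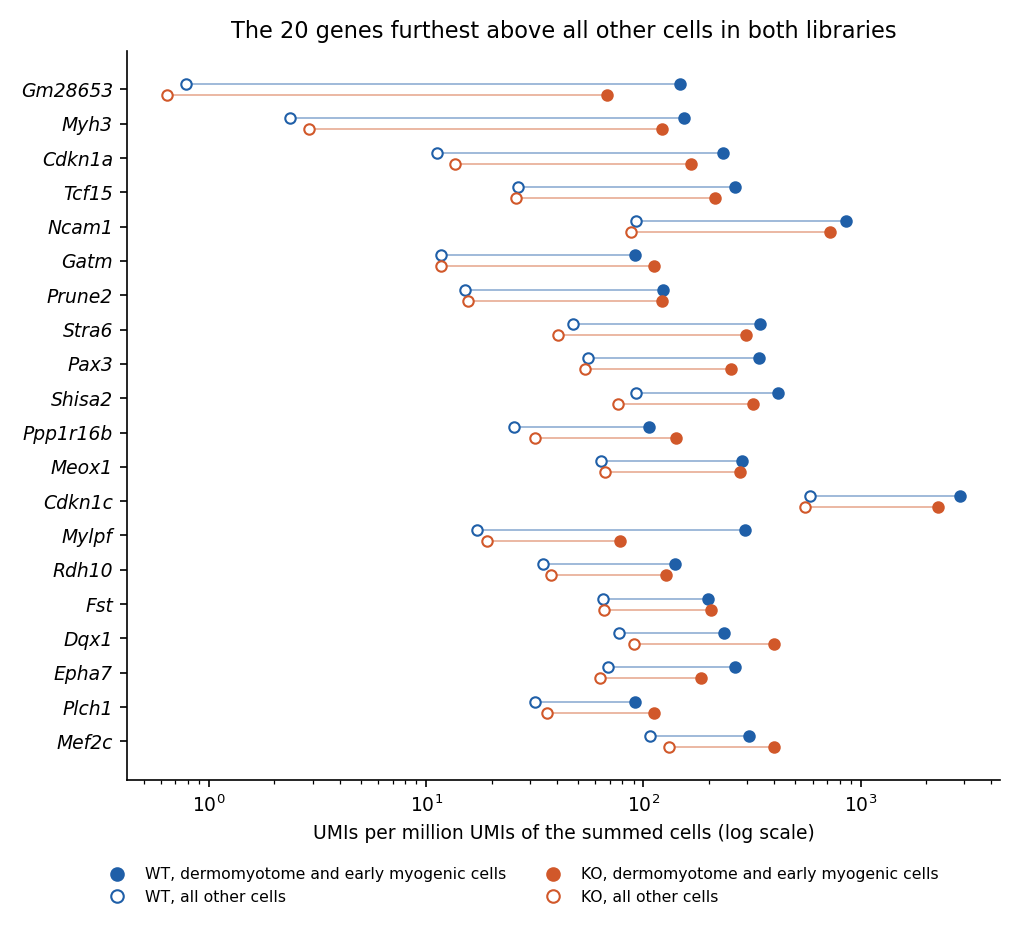
Summed level (CPM, log axis) of the 20 genes furthest above all other cells in both libraries, ordered by the smaller of the 2 log2 ratios. Only genes outside the rule with at least 50 UMIs in the selected cells were ranked. Filled points are the dermomyotome and early myogenic cells and open points all other cells, in blue for WT and orange for KO; all filled points lie to the right of their open points, by most for Gm28653 and Myh3.

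Stra6, a retinol uptake receptor, was at 345 CPM in the WT and 296 in the KO cells, against 47.4 and 40.4 in the other cells. Rdh10, which oxidises retinol to retinal, was at 140 and 126, against 34.6 and 37.4. Aldh1a2, which makes retinoic acid from retinal and was named in a list of somite signals, was at 128 and 82.6, against 46.1 and 39.4. Sclerotome-marker cells had more Aldh1a2, 343 (246 to 465) and 273 (162 to 432), while their Stra6 level overlapped that of the selected cells in WT, at 234 (156 to 338) against 291 to 406, and lay below it in KO, at 60.7 (16.5 to 155) against 227 to 381. Fst, which encodes the activin and myostatin antagonist follistatin, was at 198 and 204, against 64.9 and 65.6.

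The gene with the largest excess was Gm28653, a long noncoding RNA at chr1:20669882-20684298 on the + strand (GRCm38). It had 61 UMIs in WT and 14 in KO cells, or 147 and 68.0 CPM, against 0.786 and 0.641 in the other cells, and 0 globin-rich cells had a UMI of it. In the annotation its body holds Mir206 and Mir133b, the hairpins of a pair of muscle microRNAs. Their main mature strands, printed 5′ to 3′ from RefSeq (GRCm38.p6) with the seed (bases 2 to 8) in capitals, have different seeds. The microRNAs themselves were not measured, since 3′ sequencing of long transcripts does not capture them.
mmu-miR-206-3p: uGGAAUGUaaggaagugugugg
mmu-miR-133b-3p: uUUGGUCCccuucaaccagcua
The former lies at chr1:20679055-20679076, inside an exon of 1 of the 2 annotated Gm28653 transcripts, and the latter at chr1:20682834-20682855, inside an exon of both.

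Of the listed dermomyotome factors, 11 of 16 had at least 20 UMIs in the selected cells, and 7 of these lay more than 2-fold above other cells in both libraries and 0 below, where 1.97% of all genes were above and 0.29% below. The list summed to 1661 CPM in the WT and 1496 in the KO cells, a log2 ratio of KO over WT of -0.15 (-0.35 to 0.05). Pax7, the second paired-box gene of the dermomyotome, was at 38.6 and 43.7 CPM, against 5.16 and 5.93 in the other cells. Eya2, a transcriptional cofactor that acts upstream of the myogenic factors, was at 33.8 and 63.1 CPM, against 4.37 and 6.99. Of the myogenic regulators, 5 of 10 with enough UMIs were past 2-fold above other cells, among them Mef2c, an enhancer-binding partner of the myogenic factors, at 306 and 398 CPM against 107 and 131. Of the early muscle structure and fusion genes, 6 of 14 were, against the same 1.97% of all genes. Mymk, which encodes the fusion protein myomaker, had 11 UMIs in WT and 6 in KO cells.

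Of the lists for other cell types, some were lower than in the rest of the libraries and some higher. The rule itself removed cells with Epcam, Sox10, Sox1, Sox2 or Olig3, so low epithelial, neural crest and neural levels were partly set by the selection. The endothelial list was at 96.4 CPM in the WT and 92.3 in the KO cells, against 329 and 298 in other cells. The neuron list was at 121 and 117 against 196 and 209, the epithelial list at 98.8 and 97.1 against 277 and 263, and the lateral plate list at 142 and 170 against 549 and 402. The nephric list was at 31.3 and 34.0 against 81.6 and 74.4, the neural crest and arch mesenchyme list at 287 and 301 against 399 and 423, and the macrophage list at 0 UMIs. The head mesenchyme list stood above the other cells, at 1466 and 1375 against 675 and 654. The erythroid list was at 5113 and 2895, against 14329 and 7374, and at least 20 globin UMIs were found in 2 WT cells and 1 KO cell. The neural tube list stood above as well, at 774 and 549 CPM against 408 and 410, almost wholly through Zic1 and Nes, which somites and young muscle also express. The cardiac list had at least 2 UMIs in 44.8% of WT and 40.2% of KO cells, close to 41.4% and 49.2% of other cells, and 1 KO cell held 95 of its UMIs, where a doublet was not tested for. What part RNA from other cells had in the values below was not tested.

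The sclerotome and tendon list was at 217 CPM in the WT and 267 in the KO cells, against 375 and 323 in the other cells, and the presomitic list at 50.6 and 63.1 against 105 and 77.0. Set beside the sclerotome-marker cells, the selected cells had a similar level of Meox1 and higher levels of Pax3 and Cdkn1c. Meox1 was at 251 CPM (interval 169 to 358) in WT and 228 (127 to 376) in KO sclerotome-marker cells, ranges that overlapped those of the selected cells, 235 to 341 and 210 to 359. Pax3 was at 25.1 (5.17 to 73.3) and 75.9 (24.6 to 177), below the selected cells' 286 to 401 in WT and 189 to 331 in KO. Cdkn1c was at 242 and 304 and thus several-fold lower than in the selected cells. Foxc1, a forkhead factor of paraxial mesoderm, ran the other way in WT, at 460 (346 to 598) against 137 (104 to 178). In KO the Foxc1 values were 243 (139 to 394) and 141 (94.3 to 202), with overlapping intervals. In pharyngeal mesoderm-marker cells Pax3 had 0 UMIs in WT and 3 in KO.

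The selected cells were split by whether they held a Myog UMI, a split that detection in single cells blurs. Of the 32 Mylpf UMIs in WT cells without a Myog UMI, 30 were in 4 cells, each with Myh3 and with 15 to 32 Cdkn1c UMIs, which were picked out after their values were seen. Myog-positive cells were 20.8% of the selected cells in WT (interval 15.3 to 27.3%) and 20.7% in KO (12.6 to 31.1%), a log2 ratio of -0.01 (-0.92 to 0.84). As shares of the whole library, Myog-positive and Myog-negative cells had log2 ratios of -0.94 (-1.85 to -0.09) and -0.93 (-1.38 to -0.51). At this depth no difference in the split was detectable, while both sides of it were scarcer in KO.

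Of 2696 genes with at least 50 UMIs, 53 (1.97%) were more than 2-fold higher in Myog-positive than in Myog-negative cells of both libraries and 47 (1.74%) more than 2-fold lower. Cdkn1c was at 9736 CPM in Myog-positive against 1111 in Myog-negative WT cells, and at 8649 against 685 in KO. It had a UMI in 39 of 40 Myog-positive WT cells and 16 of 17 KO cells, with medians of 17.5 and 17 UMIs a cell. Cdkn1a was at 804 against 84.8 in WT and at 686 against 36.4 in KO. The cell cycle inhibitors thus moved with Myog in both libraries.

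The cell cycle lists went the other way. The S phase list, 29 genes, had a log2 ratio of Myog-positive over Myog-negative cells of -0.48 (-0.66 to -0.31) in WT and -0.31 (-0.55 to -0.07) in KO. The list for G2 and mitosis, also 29 genes, had ratios of -0.38 (-0.54 to -0.21) and -0.46 (-0.70 to -0.22). The 4 intervals lay below 0, and the lists were far from silent, at 4306 and 4165 CPM for G2 and mitosis in the Myog-positive cells.

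The muscle structure list was also higher with Myog, with log2 ratios of 2.31 (2.15 to 2.47) in WT and 1.94 (1.70 to 2.19) in KO. Ttn, the giant sarcomere protein titin, was at 1491 against 218 CPM in WT and at 1470 against 188 in KO. Mef2c was at 1136 against 93.9 and at 1813 against 48.5. Des, encoding the muscle intermediate filament desmin, was at 367 against 54.5 and at 319 against 66.6. Nes, encoding the intermediate filament nestin of precursor cells, was also higher in the Myog-positive cells, at 816 against 124 and at 637 against 84.8. Myf6, the myogenic factor that follows Myf5 in the myotome, had 12 UMIs in WT and 8 in KO, each of them in a Myog-positive cell. Gm28653 followed the same pattern, at 603 against 30.3 and at 319 against 6.06.

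The dermomyotome factors had no common direction. Their list had a log2 ratio of Myog-positive over Myog-negative cells of -0.32 (-0.62 to -0.03) in WT and 0.03 (-0.40 to 0.43) in KO. Eya2 was higher with Myog, with ratios of 2.81 (1.08 to 4.74) and 2.24 (0.44 to 4.09). Pdgfa, a listed gene whose ligand myotome cells make, was higher too, at 485 against 124 CPM and at 417 against 96.9. Tcf15 had ratios of -1.36 (-2.46 to -0.42) and -0.15 (-1.47 to 0.98), and Foxc1 of -1.76 (-3.69 to -0.32) and 0.08 (-1.51 to 1.41). Pax3 was at 118 against 397 CPM in WT, a log2 ratio of -1.75 (-2.84 to -0.82), and at 147 against 279 in KO, a ratio of -0.92 (-2.44 to 0.31). Meox1 was at 166 against 315 and at 123 against 315, with ratios of -0.93 (-1.85 to -0.12) and -1.36 (-3.04 to -0.05). Outside that list, Id2, an inhibitor of myogenic factor binding, was at 248 against 415 and at 319 against 606. Spry2, a feedback inhibitor of FGF signalling, was at 603 against 933 and at 441 against 933.

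**Figure D3:**
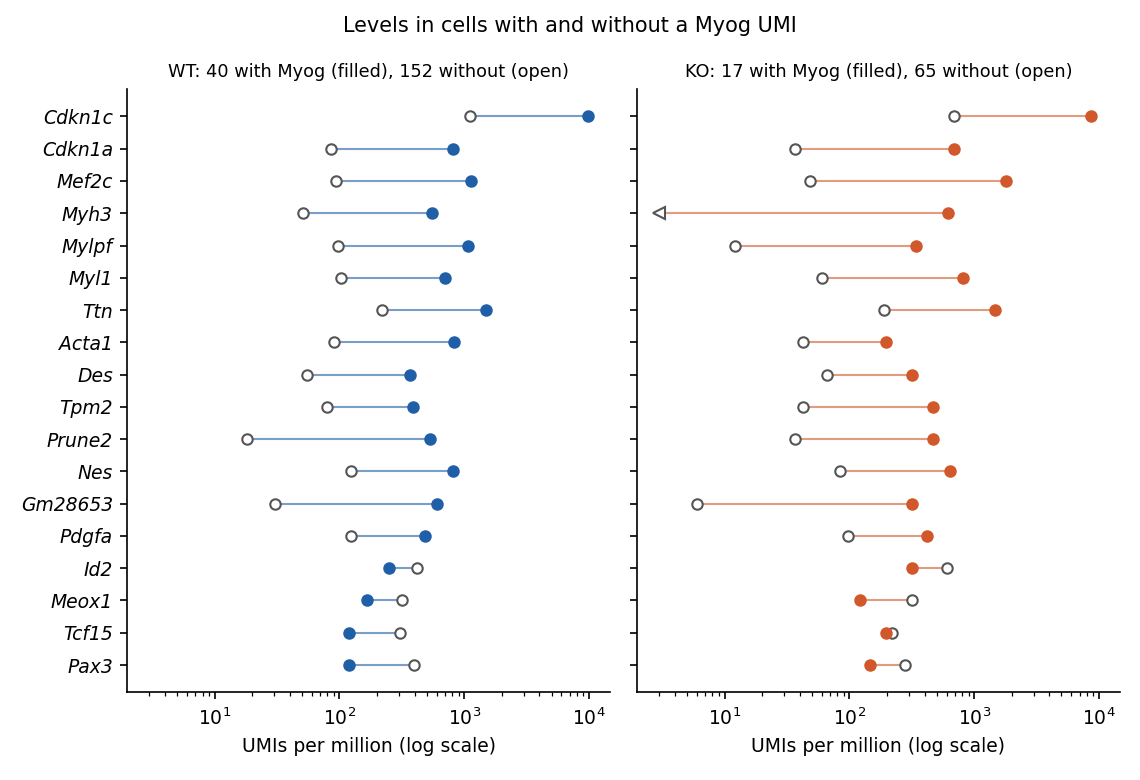
Level (CPM, log axis) of 18 genes in dermomyotome and early myogenic cells with a Myog UMI (filled) and without (open), WT on the left and KO on the right. The cell cycle inhibitors and muscle genes lie higher with Myog in both libraries, and Pax3, Tcf15, Meox1 and Id2 lie lower; the open triangle for Myh3 in KO stands for 0 UMIs.

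The promoters of Myog and of a pair of sarcomere genes that varied most between the libraries are printed because myogenic factors bind E-boxes, CANNTG. Each is the 250 bases before the RefSeq start site (GRCm38.p6), on the gene's strand, with E-boxes in capitals. Myog lies at chr1:134289754-134290003 (+), Mylpf at chr7:127211358-127211607 (+) and Acta1 at chr8:123894776-123895025 (-).
Myog: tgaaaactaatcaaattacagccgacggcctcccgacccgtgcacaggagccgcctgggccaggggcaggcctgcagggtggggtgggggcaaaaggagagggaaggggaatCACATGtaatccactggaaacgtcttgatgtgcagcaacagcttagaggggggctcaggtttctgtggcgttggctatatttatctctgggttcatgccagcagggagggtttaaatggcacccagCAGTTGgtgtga
Mylpf: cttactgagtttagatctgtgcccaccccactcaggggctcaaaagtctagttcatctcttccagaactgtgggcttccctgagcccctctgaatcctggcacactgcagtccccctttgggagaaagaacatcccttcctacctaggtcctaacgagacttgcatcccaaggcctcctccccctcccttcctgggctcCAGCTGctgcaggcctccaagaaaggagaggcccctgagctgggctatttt
Acta1: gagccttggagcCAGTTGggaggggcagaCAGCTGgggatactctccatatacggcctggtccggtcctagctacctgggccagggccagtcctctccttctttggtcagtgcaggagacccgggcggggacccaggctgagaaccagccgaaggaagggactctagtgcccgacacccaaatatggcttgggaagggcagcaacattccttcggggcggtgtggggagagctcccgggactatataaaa
E-boxes numbered 2, 1 and 2, found on either strand, and 66.2% of 32841 promoter windows of this length hold at least 1. The form CAGCTG was present in Mylpf and Acta1 and in 13% of all windows. The MEF3 motif TCAGGTTTC was present in Myog, where it starts 84 bases before the start site, and in 0.387% of windows. A match in the sequence describes letters only.

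Within the selected cells, most genes had similar levels in the libraries. Over the 5525 genes the median log2 ratio of KO over WT was -0.02, and the ratios at the 5th and the 95th percentile were -0.99 and 0.77. More than 2-fold higher in KO were 133 genes (2.41%) and more than 2-fold lower 255 (4.62%). The count of higher genes depended on small counts, since 45 genes had equal UMIs in both libraries and so stood at 1.01. Among the 544 genes with at least 200 UMIs only 3 were higher and 1 was lower.

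Mylpf and Acta1, both sarcomere genes, stood among the genes lowest in KO. Mylpf, the fast skeletal regulatory myosin light chain, had 122 UMIs in WT and 16 in KO cells, 294 and 77.7 CPM, a log2 ratio of -1.92 (-2.77 to -1.16). In all other cells the ratio was 0.15. Acta1, skeletal alpha-actin, had 100 and 15 UMIs, 241 and 72.9 CPM, a ratio of -1.73 (-2.62 to -0.94). Without the cell that held most UMIs of the gene in each library, an alternative chosen after the data were seen, the ratios were -2.29 for Mylpf and -2.10 for Acta1. With the rule applied to thinned cells they were -1.15 and -0.49. The muscle structure list, which does not hold Mylpf, summed to 3091 and 2701 CPM, a ratio of -0.19 (-0.34 to -0.05) beside -0.36 in the other cells, and turned to 0.040 with at least 3 marker UMIs and 0.036 on thinned cells. Of its 14 genes with at least 20 UMIs, Acta1 was past 2-fold lower in KO and 0 were past 2-fold higher, against 4.62% and 2.41% of all genes, so the count does not set the list apart.

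Other sarcomere genes lay on both sides of 0. Myl4, an essential light chain of embryonic muscle and atrium, was at 306 and 486 CPM, a log2 ratio of 0.67 (0.27 to 1.06) against -0.61 in the other cells. Its direction was not stable: the ratio was 0.26 without the top cell of each library, -0.23 with at least 2 marker genes and -0.35 on thinned cells. Tnnc1, slow and cardiac troponin C, was at 0.25 (-0.63 to 1.08). Myh3 had a log2 ratio of -0.35 (-1.07 to 0.34), Ttn of -0.11 (-0.49 to 0.25), Myl1, the skeletal essential light chain, of -0.10 (-0.66 to 0.43) and Des of -0.02 (-0.79 to 0.71). Tnni1, slow troponin I, was at -0.73 (-1.47 to -0.04) and Actc1, cardiac alpha-actin, at -0.51 (-0.90 to -0.15), and both genes were at -0.50 in the other cells, within these intervals. Single cells weighed on some of these: 1 KO cell held 13 of the 25 Myh3 UMIs and 23 of the 43 Myl1 UMIs, and without the top cell of each library the ratios were -1.04 for Myh3 and -1.03 for Myl1.

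Inside the Myog-positive cells Mylpf was at 1065 CPM in the WT and 343 in the KO cells, and Acta1 at 828 and 196. The log2 ratios were -1.63 (-2.56 to -0.81) and -2.08 (-3.35 to -1.02). Tnni1 and Actc1, which were lower in the other cells too, stood at -1.44 (-2.74 to -0.34) and -1.21 (-1.92 to -0.55). Mef2c was higher at 0.67 (0.22 to 1.13), with 34 of its 74 KO UMIs in 1 cell, and Myl1 and Myh3 were at 0.21 (-0.45 to 0.85) and 0.14 (-0.62 to 0.87). By cells the difference was smaller: Mylpf had a UMI in 17 of 40 WT and 6 of 17 KO cells, with at most 13 and 5 UMIs, and Acta1 in 14 and 4. Among globin-rich cells the share with a Mylpf UMI was 3.29% for WT and 4.10% for KO, and with an Acta1 UMI 9.35% and 4.92%, so the Acta1 background was also lower in KO. Median depths were 2080.5 and 2427 UMIs in the Myog-positive cells and 1879 and 2375.5 in the globin-rich cells. The ranges of single cells overlapped, with most cells of either library at 0. The highest WT cells stood above the highest of the 17 KO cells for both genes.

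**Figure D4:**
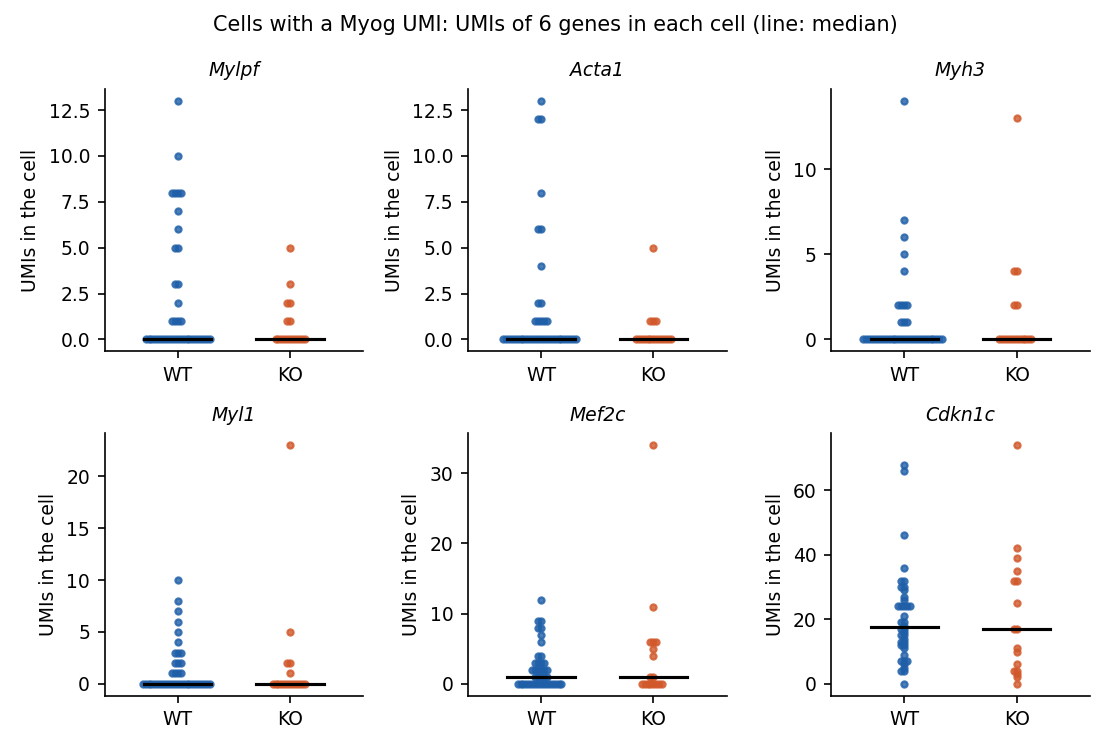
UMIs in each Myog-positive cell (vertical axis, its own scale for each gene) for 6 genes, 40 WT cells in blue and 17 KO cells in orange, with black lines at the medians. Cdkn1c medians are 17.5 and 17 UMIs; most cells lack the 4 sarcomere genes, the top Mylpf cells hold 13 UMIs in WT and 5 in KO, and single KO cells stand far above the rest for Myl1 (23 UMIs) and Mef2c (34 UMIs).

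Ptk7, a planar cell polarity receptor, was at 366 CPM in the WT and 117 in the KO cells, a log2 ratio of -1.65 (-2.34 to -1.03), and its ratio in all other cells was -1.22. Znrf3, an E3 ligase that removes Wnt receptors, had 48 UMIs in 42 WT cells and 4 UMIs in 4 KO cells, a ratio of -2.57 (-4.51 to -1.12), against -0.37 in the other cells. With at least 2 marker genes the Znrf3 ratio was -1.32. Lgr4, a receptor for R-spondins that acts against Znrf3, ran the other way with 24 and 26 UMIs, 57.9 and 126 CPM, a ratio of 1.13 (0.27 to 1.99). Axin2, a common readout of Wnt signalling, was at 135 and 102, a ratio of -0.40 (-1.20 to 0.34). The ratio of Ptk7 in the other cells lay within its interval here, and that of Znrf3 did not.

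Azin1, Sucla2, Elf2, Tbl3, Hadh, Golga3 and the cardiac light chain gene Myl2, also among the genes lowest in KO, had at most 49 UMIs in WT and ratios from -1.57 to -1.21. Golga3 rested on 1 WT cell with 14 UMIs and stood at -0.79 without the top cell of each library. Among the genes highest in KO, Myl7, the atrial myosin light chain, had 69 of its 126 KO UMIs in 1 cell, and 5430431A17Rik had 23 of 42. Without the top cell of each library the ratios went from 1.40 to 0.46 and from 1.76 to 0.81. Myl7 changed sign on thinned cells, to -0.31. Xist and its antisense partner Tsix were higher at 1.67 and 1.43, as they were in the other cells at 1.06 and 0.83. Gm42418 was at 1.00.

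The remaining genes of the highest group, Rnaseh2c, Ccdc124, Tgs1, Cenpe, Actn1 and Dync1i2, had ratios between 0.99 and 1.31 and below 0.44 in the other cells. They were picked for high ratios in the selected cells, so the contrast is a description only. Actn1, which encodes a non-muscle alpha-actinin, was the best measured with 101 UMIs in each library, or 243 and 491 CPM. Cdkn1c, for all its weight in the Myog-positive cells, was at -0.34 (-0.50 to -0.19) over the whole selection and at -0.17 (-0.35 to 0.01) within the Myog-positive cells, and on thinned cells the former turned to 0.34.

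**Figure D5:**
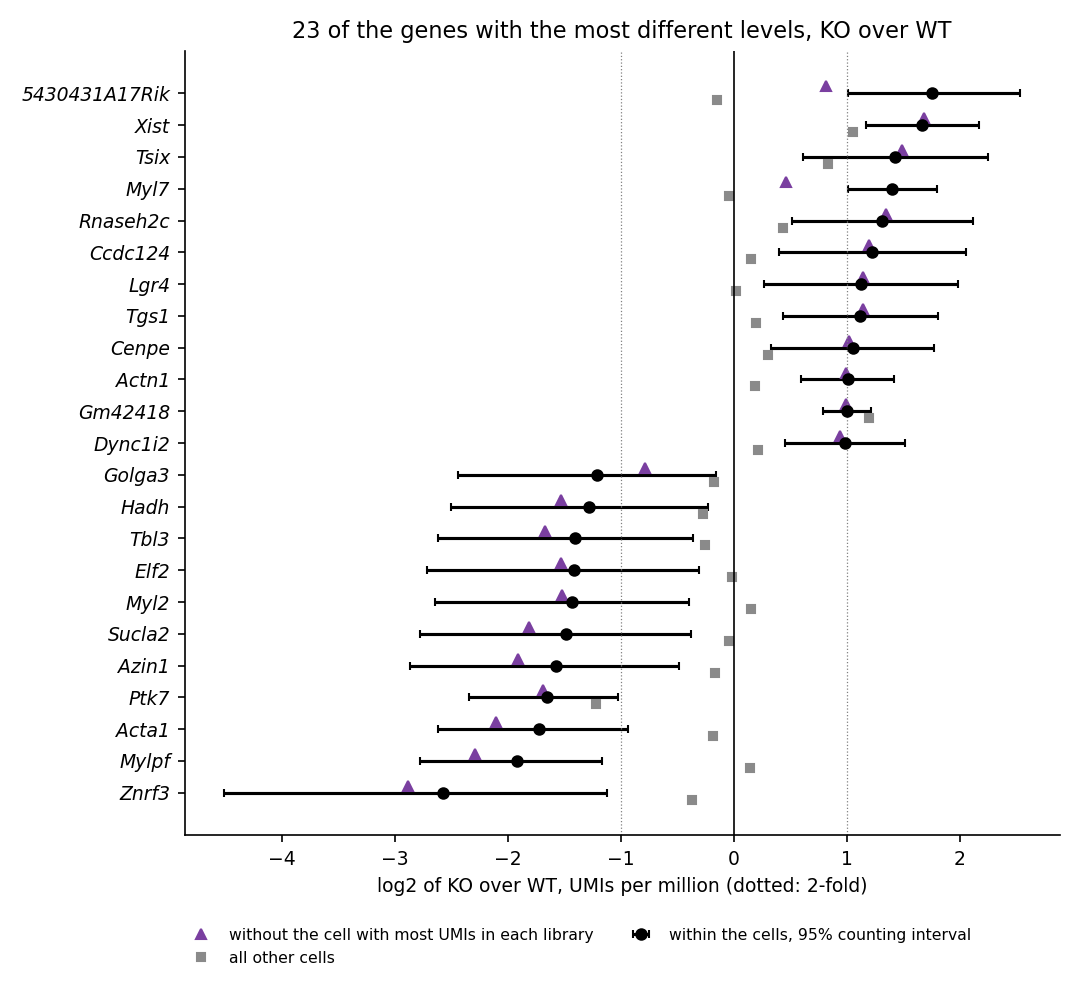
Log2 ratio of KO over WT (CPM) within the dermomyotome and early myogenic cells for the 12 highest and 11 of the 12 lowest genes with at least 50 UMIs. Black points carry exact 95% counting intervals, purple triangles leave out the top cell of each library and grey squares are all other cells; the squares lie within 0.44 of 0 except for Xist, Tsix, Gm42418 and Ptk7, and the triangles for Myl7 and 5430431A17Rik lie well below their points.

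Genes of head and branchiomeric muscle precursors had a higher summed level in KO. The list of 9 genes summed to 76 UMIs in WT and 65 in KO, 183 and 316 CPM, a log2 ratio of 0.79 (0.28 to 1.28), against -0.04 in the other cells. The ratio was 0.28 when the rule was applied to thinned cells. Only 3 of its genes had at least 20 UMIs, 1 of them past 2-fold higher and 1 past 2-fold lower, against 2.41% and 4.62% of all genes. Ebf1, an early B cell factor of arch and head mesoderm, had 12 and 25 UMIs, a ratio of 2.07 (1.02 to 3.197), and its relative Ebf3 had 31 and 6, a ratio of -1.36 (-2.91 to -0.08). Tbx1, a T-box factor of pharyngeal mesoderm, had 12 and 11, Isl1 7 and 8, Lhx2 5 and 8, and Tcf21 4 and 4. On this many UMIs no single one of the last 4 had an interval that left out 0.

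Counted by cells, with gene sets chosen after their values were seen, a UMI of Tcf21, Tbx1, Isl1 or Lhx2 was found in 16 WT cells (8.33%, interval 4.84 to 13.2%) and 17 KO cells (20.7%, 12.6 to 31.1%). After thinning to 1000 UMIs the shares were 5.88% and 11%, against 4.12% and 2.11% in globin-rich cells. The WT share was close to that background. A UMI of Pax3, Pax7, Meox1 or Tcf15 was found in 67.2% of WT and 61.0% of KO cells. Head genes without any of these dermomyotome genes marked 7 WT and 12 KO cells. These cells had medians of 1702 and 2406 UMIs a cell, and Myf5 at 911 and 1140 CPM but 0 UMIs of Dmrt2. Stra6 had 0 UMIs in the 7 WT and 2 in the 12 KO cells, against 410 and 391 CPM in cells with dermomyotome genes only. Foxd1, a forkhead gene of head and somite mesenchyme, was at 75.9 and 228 CPM against 288 and 281, from 1 and 7 UMIs. The sets were chosen with these values known and the cells are few, so the values are a description only.

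Signals that pattern the somite summed to 2893 CPM in the WT and 2807 in the KO cells, a log2 ratio of -0.04 (-0.19 to 0.10), and of 20 genes with enough UMIs 4 lay more than 2-fold above other cells in both libraries, 3 were past 2-fold lower in KO and 0 past 2-fold higher. Over all genes the shares were 1.97%, 4.62% and 2.41%. Fgf6, a growth factor made by myotome cells, had 22 UMIs in 13 WT cells and 2 UMIs in 2 KO cells, a ratio of -2.45 (-5.58 to -0.42). Wnt6, a Wnt ligand linked to epithelial somites and their covering ectoderm, had 23 and 3 UMIs, a ratio of -1.93 (-4.31 to -0.20). Heyl, a Notch target, had 17 and 4, with an interval of -3.11 to 0.54. Grem1, a BMP antagonist, was at 65.1 and 48.6 CPM against 10.95 and 16.8 in the other cells, and all its UMIs were in Myog-negative cells.

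The list of migration genes summed to 935 CPM in the WT and 860 in the KO cells, and 1 of 6 genes with enough UMIs, Epha7, an ephrin receptor, was past 2-fold above other cells (1.97% of all genes were), at 265 and 185 against 68.3 and 62.9. Met, the receptor needed for migration to the limb, had 5 UMIs in WT and 1 in KO. The S phase and G2 and mitosis lists over all selected cells had ratios of KO over WT of 0.05 (-0.06 to 0.16) and 0.02 (-0.08 to 0.13). No difference in the cell cycle lists was detectable between the libraries in these cells.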

How the data were processed

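Cells of 2 libraries, 1 per genotype, were analysed. Per the labels and methods, the authors pooled embryos, told samples apart by MULTI-Seq, counted UMIs with Cell Ranger 1.3.1 (build mm10), removed low-count and high-count cells and mitochondrial and ribosomal UMIs, and processed the data with Scanpy. The deposited score of each gene and cell is the square root of its UMIs divided by the cell total and multiplied by 1641. UMIs were recovered by squaring, and 100% of nonzero values came out whole within 0.01. The methods describe steps against doublets, including DoubletFinder, but whether these preceded the deposited values is not clear, and no doublet caller was run here. The WT library held 20781384 UMIs (median 1597 a cell) and the KO library 18936857 (median 1703).

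UMIs were summed over cells, divided by the summed total and multiplied by 1000000. Shares carry Clopper-Pearson intervals, levels exact Poisson intervals and ratios exact conditional intervals at 95% (SciPy 1.17.1), for counting error only. The functions were tested on simulated data. Where 1 group had 0 UMIs, 3 UMIs stood in as a floor. No test across cells was made. Named were listed genes, the 20 genes outside the rule furthest above other cells in the lower of the libraries, and the 12 highest and 12 lowest KO over WT, each with at least 50 UMIs. Alternatives changed the marker rule, the minimum of UMIs per gene, the scaling and the cells left out. Members and lists were chosen with earlier results of these data known. Myod1, Nkx3-2, Tnmd, Msgn1, Hoxd4 and Cx3cr1 were not analysed here. Coordinates come from GENCODE vM21 (GRCm38), in which 17917 of 18131 symbols were found. Some genes that the naming rule covers are not reported here.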

Additional observations from a re-analysis of the deposited data

How the results depend on the processing

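The log2 ratio of the cells' share, KO over WT, stayed below 0 under all 8 alternatives, from -1.19 to -0.84, and ranged from -1.77 to -0.80 over the cuts at 4, 6 and 10 marker UMIs. Within the cells, single genes were checked only with at least 50 UMIs, or as rule genes other than Lbx1. Of 40 such genes whose interval left out 0, 35 kept their direction under every alternative. Of 6 lists whose interval left out 0, 4 did. Named genes with fewer UMIs, such as Fgf6, Wnt6, Ebf1, Ebf3 and Tbx18, were not checked in this way. Mylpf ranged from -2.29 to -1.15, Acta1 from -2.10 to -0.49, Znrf3 from -2.89 to -1.32 and Ptk7 from -1.77 to -1.38. Of the list ratios under all alternatives, 207 stayed within the interval of the reported value, 18 moved beyond it and 6 of those whose interval left out 0 changed sign. Where a ratio moved, the cause was not tested.

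As reported, list ratios of KO over WT were 0.26 (0.03 to 0.50) for cardiac, -0.82 for erythroid, -0.19 for muscle structure, 0.79 for head and branchiomeric, -0.08 for myogenic regulators, -0.15 for dermomyotome, -0.12 for migration, -0.04 for signals, 0.26 for lateral plate, -0.50 for neural tube and 0.02 for G2 and mitosis, so the cardiac sign reversed in 4 alternatives. With the rule applied to cells thinned to 1000 UMIs, list ratios of KO over WT were -0.085 for G2 and mitosis, -0.76 for cardiac, 0.036 for muscle structure, -1.83 for erythroid, 0.28 for head and branchiomeric, -0.42 for lateral plate, 0.25 for migration, 0.38 for myogenic regulators, -0.10 for neural tube and 0.12 for signals. With at least 2 marker genes they were -0.39 for cardiac, 0.076 for dermomyotome, -0.98 for erythroid and -0.19 for signals. With at least 3 marker UMIs they were -0.17 for cardiac, 0.040 for muscle structure, -1.12 for erythroid and 0.11 for myogenic regulators. Without the cell with most UMIs in each library, an alternative chosen after seeing the data, they were -0.24 for cardiac, -0.36 for muscle structure, -1.34 for erythroid and -0.20 for myogenic regulators. The erythroid ratio was -1.13 without cells holding endothelial, neuron or globin UMIs, and that of myogenic regulators 0.10 with no gene ruling a cell out.

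Single genes changed sign as follows, from 0.53 for Id2, 0.67 for Myl4, 0.77 for Dqx1, 1.40 for Myl7 and -0.34 for Cdkn1c. On thinned cells Cdkn1c stood at 0.34, Myl4 at -0.35 and Myl7 at -0.31. With at least 2 marker genes Dqx1 stood at -0.28, Id2 at -0.014, Myl4 at -0.23 and Myl7 at -0.045. Dqx1 stood at -0.16 without cells holding endothelial, neuron or globin UMIs.

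Genes more than 2-fold above other cells numbered 46 with at least 50 UMIs and 1368 with no minimum, against 109. Genes more than 2-fold higher in KO numbered 11 and 616 under these minimums and 87 after scaling by a trimmed mean of log ratios or a median of ratios, against 133, since 45 genes stood at 1.01. Genes more than 2-fold lower numbered 23 and 891, and 164 with at least 2 marker genes, against 255. No paired analysis was possible because each genotype had 1 library, and for the same reason no replicate could be left out.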

Other observations

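Hox genes of groups 1 to 8 summed to 432 CPM in the WT and 311 in the KO dermomyotome and early myogenic cells, a log2 ratio of -0.47 (-0.91 to -0.05), beside -0.33 in all other cells. Of the 20 genes found in the files, 15 had a UMI in these cells, and 6 had at least 20 UMIs, none of them past 2-fold in either direction, where 2.41% of all genes were past 2-fold higher and 4.62% lower in KO. Hoxa3 was the best measured with 33 and 13 UMIs, and Hoxc4 and Hoxd3 had 6 UMIs each in WT and 0 in KO. Hox genes mark position along the body, and whether the libraries hold the same span of somites was not tested.

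Dqx1, a helicase-like gene, was unevenly spread. It had 97 UMIs in 18 WT cells and 82 UMIs in 8 KO cells, with up to 26 and 27 UMIs in a single cell, with KO above WT by 0.77 on the log2 scale (0.33 to 1.21). The direction turned to -0.28 with at least 2 marker genes and to -0.16 without cells holding endothelial, neuron or globin UMIs. Uncx, which marks the back of each sclerotome, had 24 and 9 UMIs in the selected cells, 57.9 and 43.7 CPM against 8.25 and 5.61 in the other cells, and 1 of these UMIs was in a Myog-positive cell. Tbx18, which marks the front of each somite, had 8 and 12 UMIs, a log2 ratio of 1.60 (0.18 to 3.09).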
